A study of Rattus norvegicus with 24 samples.

Results

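The dystrophin glycoprotein complex of the muscle fibre membrane was followed through 7 of its genes, Dmd, Utrn, Dag1, Sgca, Sgcb, Sgcd and Dtna, in rat muscle trained daily for up to 30 days. The genes were taken by symbol from the transcript table, and the values of a gene's transcripts were added, so that 12 of the 20027 transcripts and 7 of the 15273 gene symbols were described here. All 7 were expressed highly enough to be tested. The study trained the left tibialis anterior, a muscle of the front of the lower leg, of male Wistar rats through an implanted pulse generator, and used the unstimulated right muscle of the same animal as its contralateral control. Muscles were taken 1 h after the last bout, after 2, 10, 20 or 30 days of training, from 3 animals at each time, which gave 12 trained and 12 control muscles, each an RNA sequencing library of poly(A)-selected RNA. Every control muscle therefore came from an animal whose other leg was trained and shared any effect of the implant and the training on the whole body.

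Dystrophin, the product of Dmd, joins the actin cytoskeleton under the membrane to beta-dystroglycan in it. Dystroglycan, cut from the product of Dag1, binds laminin outside the fibre through the sugars of its alpha subunit. The sarcoglycans, among them the products of Sgca, Sgcb and Sgcd, form a membrane complex beside dystroglycan, and alpha-dystrobrevin, from Dtna, binds dystrophin inside the fibre. Utrophin, from Utrn, is the relative of dystrophin that is found at the neuromuscular junction of adult muscle. The complex carries force sideways from the fibre to the matrix, and loss of several of its genes causes muscular dystrophy.

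The tissue was muscle in every library: the 6 muscle fibre markers in the table (Acta1, Ckm, Mb, Mylpf, Tnnt3 and Pygm) summed to 54470 to 91500 in trained and 67270 to 81210 in control muscles, on the scale per transcript length used here. Markers of other cell types differed with training. The summed level of 5 fibroblast markers was 300.9 to 981.8 in trained muscles against 74.65 to 253.1 in controls, and 4, 5, 5 and 5 of the 5 were higher after 2, 10, 20 and 30 days. That of 7 macrophage markers was 19.89 to 50.73 against 6.676 to 16.53, and 4, 5, 6 and 6 of the 6 tested were higher. Adgre1, counted as higher after 20 and 30 days, was at most 0.7345 in the controls and so was tested only through trained muscles. Of the 6 fibre markers, 0, 3, 1 and 1 were higher and 3, 3, 3 and 2 lower (with the animal as a block 0, 1, 1 and 1, and 2, 3, 1 and 1). Of 5 endothelial markers 0, 2, 2 and 2 were higher and 1 was lower, after 2 days (with the animal as a block 0, 2, 1 and 1 were higher and 0 lower). Of all genes 15.4%, 15.6%, 11.7% and 11.1% were higher and 13.5%, 13.3%, 9.64% and 9.46% lower in the main comparison. The shifts of these markers accompany every comparison of trained with control muscle below, their part in any result was not tested, and in whole muscle fewer cells of a type and less RNA per cell cannot be told apart.

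Sgcb, which encodes beta-sarcoglycan, had the highest level of the 7 genes in the control muscles, at 93.19 ± 5.889 (SD, n = 12) on the deposited per-length scale after rescaling between libraries. Sgca, for alpha-sarcoglycan, came next at 67.17 ± 8.024, followed by Dag1 at 39.76 ± 3.216, Dmd at 8.669 ± 1.662, Dtna at 6.68 ± 0.9738, Sgcd, for delta-sarcoglycan, at 4.664 ± 0.6947, and Utrn at 1.70 ± 0.2472. Sgcb was above Sgca in 11 of 12 control muscles, and each other neighbour in this order was the higher in 12 of 12, although the means ± SD of Dmd and Dtna overlapped. The order of the means was the same in the trained muscles, where Sgcb and Sgca lay nearer to each other, at means of 68.89 and 64.18 over 12 muscles. No gene of the 7 differed between the control muscles of the 4 time points (limma F test, lowest adjusted p = 0.7705, for Dag1), a test that 0.152% of all 11196 genes passed.

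Each trained group of 3 was compared with the 12 control muscles to ask how the transcripts of the complex differed after 2, 10, 20 and 30 days of training. Sgcb was lower at every time, Dmd was higher after 10 days, Dtna was lower after 20 days, and Dag1, Sgca, Sgcd and Utrn passed the test at no time. With the animal as a block, where 21.6%, 20.1%, 17.4% and 12.3% of all genes passed, the counts were 1, 2, 2 and 0. In the main comparison 1 of 7 genes passed after 2 days, where 28.9% of all genes did, 2 after 10 days against 28.9%, 2 after 20 days against 21.4%, and 1 after 30 days against 20.6%. The median log2 fold change of the 7 genes was -0.01, 0.02, -0.02 and -0.10, beside -0.01, -0.03, -0.03 and -0.01 over all genes. Tests were limma's on log2(value + 1) with Benjamini-Hochberg adjustment over 11196 genes, and a gene passed at an adjusted p under 0.05. The added 1 makes fold changes smaller than the ratio of the levels. This matters most for low genes, here Utrn, Sgcd and Dtna and, among the partners below, Dtnb, Sgce and Nos1.

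**Figure D1:**
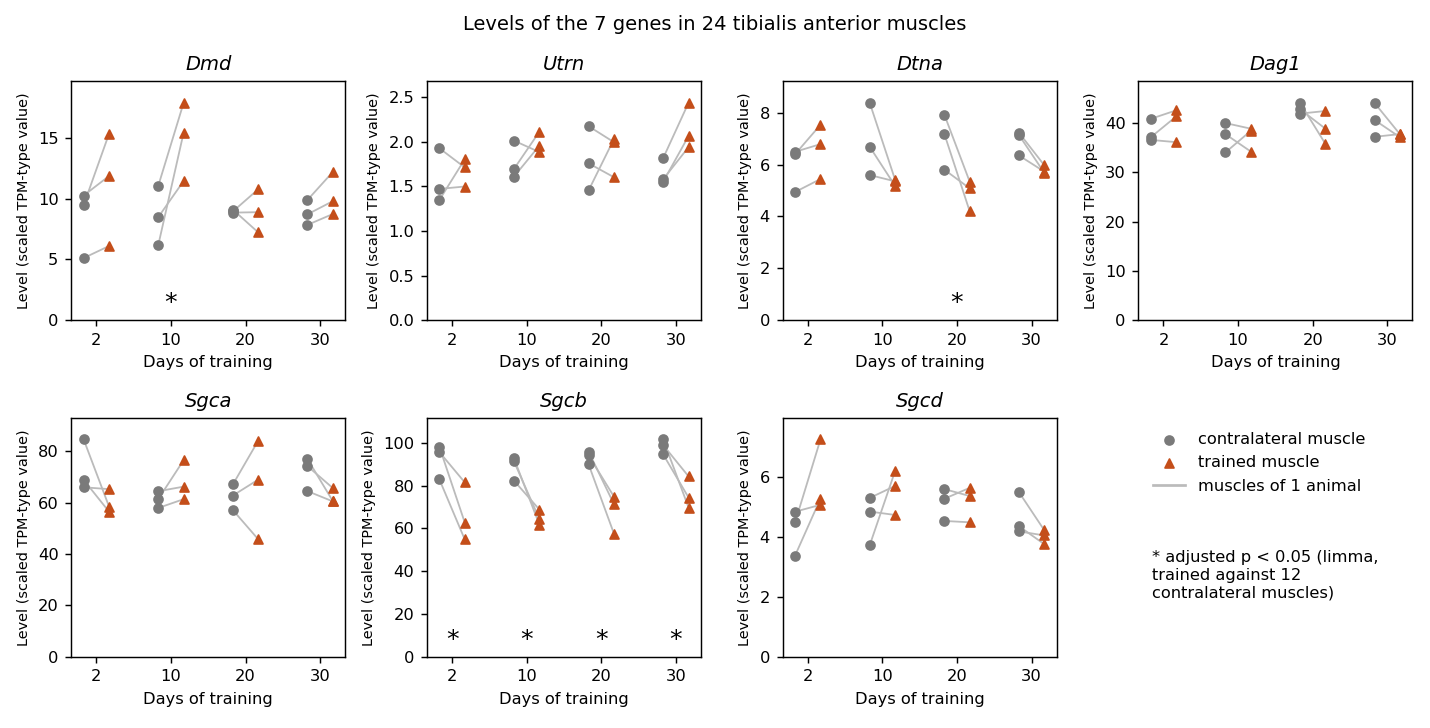
Level of each gene in 24 muscles (y axis, scaled TPM-type value from 0; x axis, days of training). Grey circles are contralateral and orange triangles trained muscles, lines join the muscles of 1 animal, and an asterisk marks an adjusted p under 0.05 against 12 control muscles. For Sgcb every line falls, while for Dag1, Sgca and Utrn the trained muscles of each time overlap the 12 controls.

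Sgcb was the gene of the complex whose summed level was lower throughout. Control muscles ranged from 82.34 to 101.6 with a median of 94.36. After 2 days the 3 trained muscles were at 81.54, 54.88 and 62.78, after 10 days at 68.84, 61.81 and 64.45, after 20 days at 71.35, 57.56 and 74.88, and after 30 days at 74.45, 69.77 and 84.33. All 3 trained muscles were thus below every control muscle after 2, 10 and 20 days, and 2 of 3 were after 30 days. The log2 fold change was -0.50 after 2 days (SE 0.10, limma adjusted p = 0.0005496), -0.51 after 10 days (adjusted p = 0.0004099), -0.46 after 20 days (adjusted p = 0.001749) and -0.29 after 30 days (adjusted p = 0.0428). With the animal as a block the first 3 calls held (adjusted p = 0.01269, 0.02122 and 0.02) and the one at 30 days was lost (-0.37, adjusted p = 0.0685), as it was with only the controls of that time, with the main transcript alone, without trained replicate 1 or 2 of 30 days (-0.28 and -0.23), and without any 1 of 8 control muscles. That main transcript, Sgcb-201, passed after 2, 10 and 20 days. Sgcb-202, at 3.429 to 22.04 in the controls, passed at no time (log2 fold changes from -0.68 to -0.26, SE 0.395).

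Within animals, Sgcb was lower in the trained than in the contralateral muscle in 12 of 12. The mean log2 difference was -0.44 (SD 0.158, range -0.637 to -0.228), a fold of 0.738, with an exact two-sided sign-flip p of 0.0004883, the smallest that 12 pairs can give, and a limma adjusted p of 1.803e-05 in a test that 40.1% of all genes passed. The mean difference was -0.484, -0.443, -0.461 and -0.368 after 2, 10, 20 and 30 days, a range of 0.116, while animals of 1 time point spanned 0.307 to 0.408. Between trained groups Sgcb did not pass the test in any of 6 comparisons, which 1.93% (10 against 2 days), 8.05% (20 against 2 days), 15% (30 against 2 days), 0.17% (20 against 10 days), 3.94% (30 against 10 days) and 0.0357% (30 against 20 days) of all genes passed, the highest value being 0.22 on the log2 scale for 30 against 10 days (SE 0.127, adjusted p = 0.3478).

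Sgca passed the test at no time. It was at 65.28, 58.5 and 56.51 after 2 days, 61.37, 76.57 and 66.25 after 10 days, 68.99, 84.16 and 45.74 after 20 days, and 65.69, 60.5 and 60.6 after 30 days, against 57.12 to 84.62 in the controls. Its trained muscles of every time overlapped the 12 controls, although after 2 days all 3 were below the controls of that time (66 to 84.62), and their spread was widest after 20 days (SD 19.35), and its log2 fold changes lay between -0.15 and 0.02 (SE 0.13). Over 12 animals, the change of Sgcb lay below that of Sgca by 0.37 on the log2 scale (mean -0.37, SD 0.331, 11 of 12 animals, exact sign-flip p = 0.002441) and below that of Sgcd (mean -0.55, SD 0.324, 11 of 12, exact p = 0.0009766). These 2 comparisons were chosen after the fall of Sgcb was seen.

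Expressed as a share, which does not depend on scaling between libraries, Sgcb made up 56.5% ± 3.06 (SD, n = 12) of the sum of Sgca, Sgcb and Sgcd in the control muscles and 49.9% ± 5.493 in the trained ones. The difference within animals was -6.66 percentage points (SD 5.503, lower in 11 of 12 animals, exact sign-flip p = 0.001465). The exception was an animal trained for 30 days, at 54.5% in the control and 56.5% in the trained muscle. The share of Sgca was 40.6% in controls and 46.4% in trained muscles, and that of Sgcd 2.83% and 3.74%, and these rise where that of Sgcb falls because the shares add up to the whole. The share is built from the same values as the fall of Sgcb above, so its test is not separate support for that fall.

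Sgcd was measured at a low level. It was at 7.246, 5.273 and 5.067 after 2 days, 6.189, 5.696 and 4.729 after 10 days, 5.632, 4.484 and 5.361 after 20 days and 3.755, 4.046 and 4.22 after 30 days, against 3.375 to 5.591 in the controls. Trained muscles of every time overlapped the 12 controls, although after 2 days all 3 were above the controls of that time (3.375 to 4.837). The log2 fold changes ran from 0.27 (SE 0.117, adjusted p = 0.0833) after 2 days over 0.21 and 0.13 to -0.17 after 30 days, none of which passed. Among trained muscles alone Sgcd was lower after 30 than after 2 days, by -0.44 on the log2 scale (SE 0.148, limma adjusted p = 0.04551), a comparison that 15% of all genes passed. That call was lost with the animal as a block (-0.56, adjusted p = 0.1394) and without any 1 of 6 trained muscles, among them replicate 1 of 2 days, which had the highest level (-0.30 without it, adjusted p = 0.1829).

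**Figure D2:**
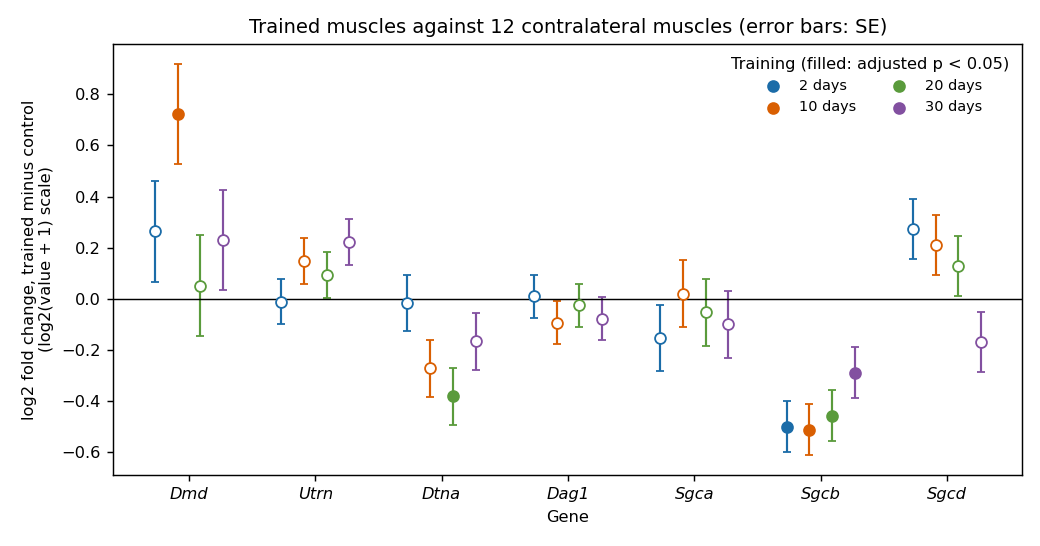
Log2 fold change of the 7 genes, each trained group of 3 against 12 contralateral muscles (y axis, log2(value + 1) scale; x axis, gene), with bars of 1 SE and filled points at an adjusted p under 0.05. The 4 points of Sgcb lie between -0.51 and -0.29, and the other filled points are Dmd after 10 days (0.72) and Dtna after 20 days (-0.38).

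Dmd rose after 10 days. Control muscles were between 5.115 and 11.07 with a median of 8.909, and the 3 trained muscles of 10 days were at 15.46, 11.47 and 17.92, all above every control. The log2 fold change was 0.72 (SE 0.197, fold 1.65, limma adjusted p = 0.007091), and 0.75 with the animal as a block (adjusted p = 0.004361). It missed the threshold against the controls of the same time only (adjusted p = 0.0537) and without replicate 3 of 10 days (0.59, adjusted p = 0.0678). At the other times Dmd was at 15.36, 6.109 and 11.88 after 2 days, 7.227, 8.899 and 10.79 after 20 days, and 8.748, 9.807 and 12.22 after 30 days, with log2 fold changes of 0.27, 0.05 and 0.23, none past the threshold. After 2 days the group was split, since replicate 2 was lower than 11 of the 12 controls and the other two were above all of them. Without replicate 2 the log2 fold change at 2 days was 0.61 (adjusted p = 0.04096). Over 12 animals Dmd was higher in the trained muscle in 11, by 0.32 (SD 0.376, exact sign-flip p = 0.007812, limma adjusted p = 0.01901). That limma call was lost without the block (adjusted p = 0.0694) and with the values as deposited (adjusted p = 0.06229).

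The Dmd locus lies on chromosome X at 51286737 to 53519259 of Rnor_6.0 on the plus strand, and the table holds 4 of its transcripts. Dmd-202 spans the whole locus and is called full length here. Dmd-201 and Dmd-204 both run from 53360839 to 53517142, starting 2074102 bases downstream of the first base of Dmd-202, and Dmd-203 runs from 53053609 to 53123476. The promoter sequences of RefSeq in the GRCr8 build, which differs from the build of the files, hold 3 windows for Dmd, the second 2072927 and the third 2072958 bases after the first. The 250 bases before the start are shown for the first and the second of these and for Sgcb, as the genes and transcripts that the results turn on. Capitals mark a CArG box, the site of serum response factor, an AP-1 site (TGANTCA) or an E-box (CANNTG), found on either strand without overlap between them in these windows:

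Dmd, first window, chrX:51205836-51206085, plus strand: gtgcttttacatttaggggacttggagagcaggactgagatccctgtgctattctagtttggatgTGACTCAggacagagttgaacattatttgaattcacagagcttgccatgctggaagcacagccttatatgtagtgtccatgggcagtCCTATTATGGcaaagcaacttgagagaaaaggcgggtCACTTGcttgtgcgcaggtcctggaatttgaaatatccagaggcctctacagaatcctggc

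Dmd, second window, chrX:53278763-53279012, plus strand: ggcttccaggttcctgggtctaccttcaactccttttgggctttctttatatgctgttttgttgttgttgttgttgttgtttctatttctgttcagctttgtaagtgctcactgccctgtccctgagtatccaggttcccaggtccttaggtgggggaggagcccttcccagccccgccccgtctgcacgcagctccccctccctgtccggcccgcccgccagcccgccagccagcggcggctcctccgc

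Sgcb, chr14:34917413-34917662, plus strand: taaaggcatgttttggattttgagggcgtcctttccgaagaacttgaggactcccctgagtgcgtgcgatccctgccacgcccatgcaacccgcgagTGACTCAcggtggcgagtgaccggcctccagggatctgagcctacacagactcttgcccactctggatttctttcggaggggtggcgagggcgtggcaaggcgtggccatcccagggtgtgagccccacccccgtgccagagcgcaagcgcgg

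The first Dmd window holds 1 CArG box at -98 to -89 from the start, 1 AP-1 site at -185 to -179 and 1 E-box at -61 to -56. Of 33469 RefSeq promoter windows of the same 250 bases, 1.497% hold a CArG box, 6.34% this AP-1 site and 65.5% an E-box. The second Dmd window, 59.6% of G and C against 46.8% in the first, holds none of these and 2 GC boxes (GGGCGG), a motif of 30.5% of all windows that is not in capitals. The Sgcb window, at 62.8% of G and C, holds 1 AP-1 site at -153 to -147. A match in such a window is a description of its letters. Windows were at hand for 6 of the 7 genes.

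The rise of Dmd was seen in the full-length transcript. Dmd-202 was at 5.095 ± 0.4745 (SD, n = 12) in the controls, range 4.319 to 5.707, a narrower spread than that of the summed gene. It was at 8.782, 5.504 and 7.218 after 2 days, 11.23, 8.795 and 8.674 after 10 days, 4.601, 4.819 and 7.056 after 20 days and 4.727, 5.952 and 7.672 after 30 days. All 3 muscles of 10 days and 2 of 3 of 2 days were above the control range, whereas the later groups reached into it. The log2 fold change was 0.41 after 2 days (limma adjusted p = 0.02538, over 13452 transcripts, of which 22.9% passed) and 0.79 after 10 days (adjusted p = 8.673e-05, against 22.8%). With the animal as a block the value at 2 days was 0.35 (adjusted p = 0.1528) and that at 10 days 0.76 (adjusted p = 0.007045). After 20 and 30 days it was 0.08 and 0.21, neither past the threshold, where 16.6% and 16% of all transcripts passed. In 12 of 12 animals Dmd-202 was higher in the trained muscle (mean 0.37 on the log2 scale, SD 0.33, exact sign-flip p = 0.0004883). This sign-flip test was run on a few chosen transcripts only, and its p is not adjusted.

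The short transcripts varied widely among the controls as well. Dmd-201 and Dmd-204 summed to 0.2145 to 5.082 in control muscles and made up 4.19% to 50% of the Dmd sum there, with a median of 41.8%. Both muscles of animal 2 of 2 days were low, at 4.19% in the control and 9.89% in the trained muscle, and their Dmd sums were the lowest of the 12 muscles of each limb. In trained muscles the share was 9.89% to 51.6% with a median of 37.5%. Neither Dmd-201 nor Dmd-204 passed the test at any time (log2 fold changes from -0.21 to 0.20 and from 0.10 to 0.49, SE 0.296 and 0.392). Dmd-203 stayed under 1 in all muscles and was not tested. Dmd-201 and Dmd-204 lie within the span of Dmd-202, so that their values rest on how reads were divided between them.

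**Figure D3:**
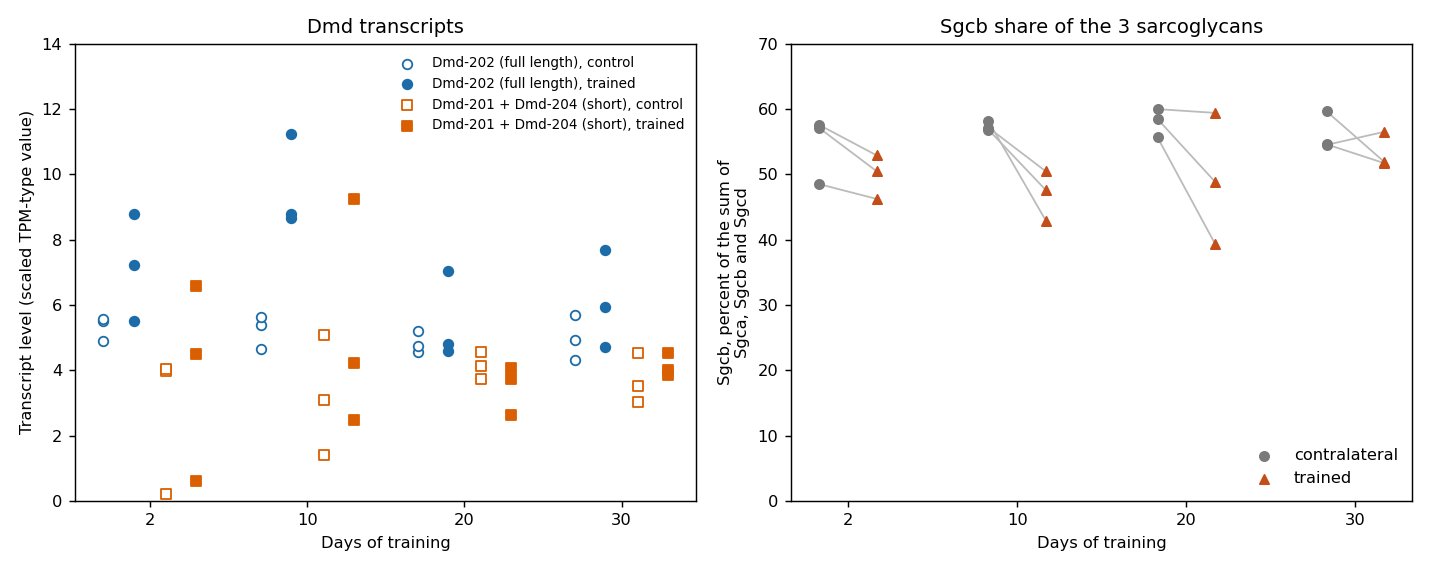
Left, level of the full-length Dmd-202 (blue circles) and of the sum of Dmd-201 and Dmd-204 (orange squares) per muscle (y axis, scaled TPM-type value; x axis, days of training), open for contralateral and filled for trained muscles. Right, Sgcb as a percent of the sum of Sgca, Sgcb and Sgcd (y axis from 0), lines joining the muscles of 1 animal. Control Dmd-202 keeps to 4.319 to 5.707 and the trained muscles of 10 days lie at 8.674 and above, and the Sgcb share falls in all animals but 1.

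Utrn, at 1.347 to 2.174 in the controls, was at 1.498, 1.803 and 1.712 after 2 days, 2.112, 1.884 and 1.956 after 10 days, 1.602, 1.995 and 2.03 after 20 days and 2.064, 1.94 and 2.437 after 30 days. Only 1 trained muscle, of 30 days, was above the range of the 12 controls, and all 3 of 30 days were above the controls of that time (1.552 to 1.817). Its log2 fold change was highest after 30 days, at 0.22 (SE 0.089), and did not pass (adjusted p = 0.07855). Over 12 animals the mean log2 difference was 0.11 (SD 0.164, higher in 8 of 12, exact sign-flip p = 0.03809, limma adjusted p = 0.1392). Of 7 tested markers of the neuromuscular junction, where utrophin is found, 4, 3, 2 and 1 were higher after 2, 10, 20 and 30 days. The 9 such markers measured, tested or not, summed to 36.03 to 71.61 in trained and 31.74 to 48.29 in control muscles. Their part in the values of Utrn was not tested. The counts were 1, 4, 1 and 1 with the animal as a block, and the shares of all genes higher in the main comparison were 15.4%, 15.6%, 11.7% and 11.1%.

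Dag1 passed no test. It was at 36.12, 41.34 and 42.58 after 2 days, 38.42, 38.86 and 34.22 after 10 days, 35.78, 42.45 and 38.86 after 20 days and 37.76, 37.12 and 37.72 after 30 days, with every trained muscle inside the control range of 34.03 to 44.12. The log2 fold changes were between -0.09 and 0.01 (SE 0.085), and over 12 animals the mean difference was -0.05 (SD 0.142, higher in 5 of 12, exact sign-flip p = 0.2856).

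Dtna was lower later in training. Control muscles were at 4.941 to 8.385. The trained muscles were at 7.535, 5.443 and 6.789 after 2 days, 5.354, 5.419 and 5.179 after 10 days, 5.342, 4.2 and 5.083 after 20 days and 5.684, 5.975 and 5.729 after 30 days. All of them lay within the range of the 12 controls except replicate 2 of 20 days, which was below it, and after 10, 20 and 30 days all 3 were below the controls of the same time. The log2 fold change was -0.38 after 20 days (SE 0.111, limma adjusted p = 0.01531; -0.44 with the animal as a block, adjusted p = 0.02832), and it was -0.02, -0.27 (adjusted p = 0.06956) and -0.17 after 2, 10 and 30 days. The call at 20 days was lost without replicate 2 (-0.30, adjusted p = 0.1324) and narrowly with the values as deposited (-0.38, adjusted p = 0.05078). Within animals Dtna was higher in the trained muscle in all 3 animals after 2 days and lower in all 9 after 10, 20 and 30 days. The mean over 12 was -0.21 (SD 0.269, exact sign-flip p = 0.02295, limma adjusted p = 0.04337), and the limma call was lost in 8 of 12 fits that left out 1 animal and with the values as deposited (adjusted p = 0.1405).

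**Figure D4:**
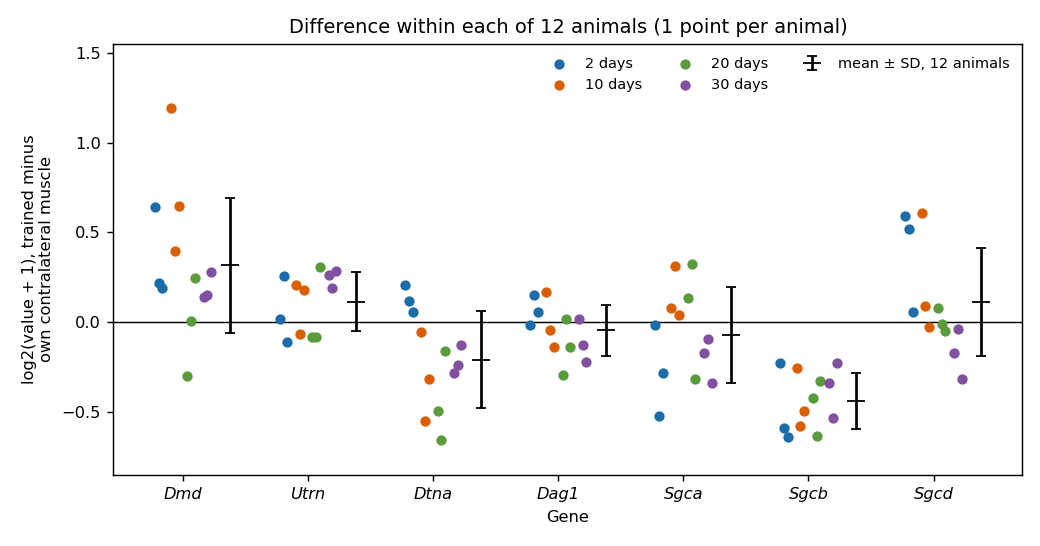
Difference in log2(value + 1) between the trained and the contralateral muscle of each animal (y axis) for the 7 genes (x axis), 1 point per animal coloured by days of training, with the mean and SD over 12 animals in black. All 12 points of Sgcb lie below 0, 11 of 12 of Dmd above 0, and those of Dtna are above 0 after 2 days and below 0 later.

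Across the 24 muscles, the genes whose levels moved most like those of the 3 genes that passed were sought among about 3840 genes with a mean of at least 10, by the root mean square difference of log2 values centred on the controls. Nearest to Dmd was Neb, which encodes nebulin of the thin filament, at 0.196 (median over all candidates 0.518), followed by Akap2 and Filip1l at 0.246 and 0.269. Nearest to Sgcb were Galnt1, Usp24 and Xpo7 at 0.099, 0.101 and 0.102 (median 0.381). Nearest to Dtna were Eif4g3, Rabep1 and Vps36 at 0.119, 0.138 and 0.14 (median 0.319). A gene that stayed at its control mean would lie at 0.407 from Dmd, 0.341 from Sgcb and 0.228 from Dtna, nearer than the median candidate. All these distances describe 24 muscles that share animals and scaling.

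The partners of the complex were read from lists of 49 genes, of which 45 were in the table and 40 were tested. Of these 40, 8 were higher and 5 lower after 2 days, 14 and 5 after 10 days, 10 and 3 after 20 days, and 6 and 3 after 30 days, beside 15.4% higher and 13.5% lower, 15.6% and 13.3%, 11.7% and 9.64%, and 11.1% and 9.46% of all genes. Fitted with the animal as a block, the counts were 8 and 4, 11 and 1, 7 and 1, and 4 and 1. The counts of higher genes after 10, 20 and 30 days include Dtnb, which passed the filter only through trained muscles. Of the extracellular ligands of dystroglycan 2, 7, 5 and 5 of 8 were higher and none lower (with the block 5, 6, 4 and 3). Bgn, for the matrix proteoglycan biglycan, rose from a control mean of 5.637 to 18.14, 32.53 and 25.98 after 2 days and to 55, 42.07 and 33.24 after 10 days (log2 fold change 2.74, SE 0.166, limma adjusted p = 1.277e-11). Lama2, the alpha chain of the main laminin around adult fibres, was at 15.98, 16.11 and 7.674 after 10 days against 4.191 in the controls (1.41, adjusted p = 1.749e-06), and Lamb1 and Lama4 were higher at the same times, by 1.13 and 1.03 after 10 days. With the animal as a block these 3 laminin genes also passed after 2 days (0.71, 0.62 and 0.64 for Lama2, Lama4 and Lamb1), and Lama2 missed the threshold after 30 days (adjusted p = 0.05276). The fibroblast markers above, which include collagens, rose in the same muscles, and which cells made these ligands was not tested.

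Integrin alpha7 beta1 is the other laminin receptor of the fibre. Itga7 was at 23.72, 56.1 and 44.26 after 2 days against 11.67 in the controls (log2 fold change 1.67, SE 0.176, limma adjusted p = 1.525e-07), and its fold change was 1.09 after 10 days, 0.51 after 20 days and 0.03 after 30 days, the last not past the threshold and the one at 20 days not with the block (adjusted p = 0.117). Itgb1 was 1.02 higher after both 2 and 10 days. Des, for desmin, the intermediate filament tied to the membrane at the costamere, was higher after 2, 10 and 20 days (0.90, 0.98 and 0.59). After 2 days these 3 genes were all above the control range in each trained muscle, in the group where Sgcb was below it.

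The named signalling, syntrophin, dystrobrevin and sarcoglycan partners differed in both directions, and which cells made their transcripts in whole muscle was not tested. Nos1, for the neuronal nitric oxide synthase that the complex anchors, was at 3.129, 0.5275 and 1.461 after 2 days against 4.783 in the controls (log2 fold change -1.15, SE 0.3, limma adjusted p = 0.005546), and it did not pass later. The controls of 2 days were themselves lower, at 5.422, 1.828 and 3.685, and replicate 2 was the lowest in both limbs. Against these controls Nos1 was at -0.82 and did not pass (limma adjusted p = 0.145). With the animal as a block it was also at -0.82 and passed (adjusted p = 0.03074). Cav3, for caveolin of muscle, was higher after 2 days only (0.40, adjusted p = 0.003094, with the block 0.1273). Sntb1, a syntrophin, was lower after 2 days (-0.73, adjusted p = 0.04073, with the block 0.1539). Dtnb, for beta-dystrobrevin, was higher after 10, 20 and 30 days (0.54, 0.77 and 0.72) from a level of only 0.3676. No control muscle reached 1 in Dtnb (highest 0.6296), so it entered the test only through trained muscles, where it was high. Its calls were thus favoured by the filter. Sgce, for epsilon-sarcoglycan, which other cells also make, was higher after 10 and 20 days (0.57 and 0.63) from 1.443, the first not with the block (adjusted p = 0.08821).

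Of 17 genes for the sugars of dystroglycan, 2, 2, 1 and 0 were higher and 3, 5, 3 and 3 lower, and with the animal as a block 0, 1, 0 and 0 were higher and 2, 1, 1 and 1 lower. Of all genes 15.4%, 15.6%, 11.7% and 11.1% were higher and 13.5%, 13.3%, 9.64% and 9.46% lower in the main comparison. At every time more genes of this list were lower than higher in the main comparison, and the lower ones are not named here. Pomgnt1 and Gmppb were higher, Pomgnt1 after 2 and 10 days (0.40 and 0.46) and Gmppb after 10 and 20 days (0.46 and 0.57). With the animal as a block, limma's calls were lost for Pomgnt1 after 2 days (adjusted p = 0.1258) and Gmppb at both times (0.1034 and 0.1184), and over all partner genes the block ended 21 of 54 calls and added 4.

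**Figure D5:**
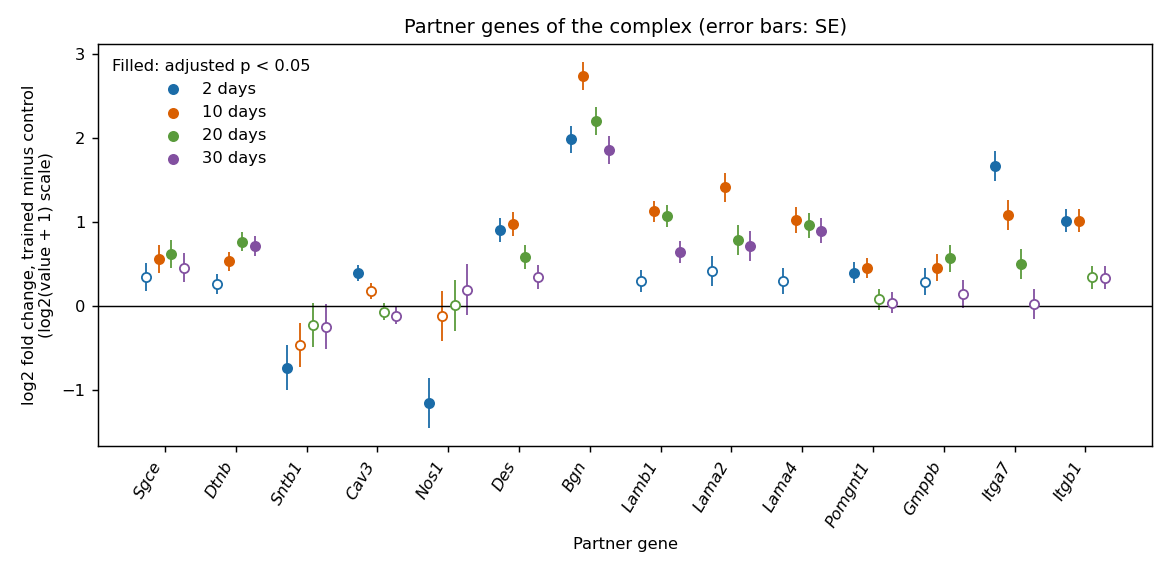
Log2 fold change of 14 partner genes (x axis) in each trained group of 3 against 12 contralateral muscles (y axis, log2(value + 1) scale), coloured by days of training, with bars of 1 SE and filled points at an adjusted p under 0.05. Bgn is highest at 2.74 after 10 days, and Itga7 declines from 1.67 after 2 days to 0.03 after 30 days. Dtnb passed the filter only through trained muscles.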

How the data were processed

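Poly(A)-selected RNA of 24 muscles was sequenced as paired reads. The authors aligned reads with STAR in Partek Flow to the Rnor_6.0 (rn6) genome and quantified them to Ensembl transcripts. The values they deposited behave as TPM: all libraries have the same total, so the values keep no depth, no count model was used, and their counting precision could not be given. A second deposited table, of gene-level values for part of the genes, and the authors' own table of p-values and fold changes were not used. Here each library was divided by its median-of-ratios factor (0.778 to 1.137, from 16230 transcripts above 0 in every muscle), and transcripts were summed by gene symbol. The 11196 genes that reached 1 in 3 or more muscles were fitted with limma 3.58.1 (R 4.3.3) on log2(value + 1), all 24 muscles in 5 groups, the 12 controls being pooled as 1 group, in place of the authors' own test for counts. The fit was tested on simulated data.

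Left and right muscles come from the same animal, so pairing is given by the design, and the deviations of the paired muscles correlated with a median r of 0.174 (0.028 to 0.343, 12 animals), against -0.10 for different animals of 1 time point. Fits with the animal as a block, time-matched controls, other filters, pseudocounts and scaling, single transcripts and each muscle left out were the alternatives. Differences over 12 animals were tested with limma and an exact two-sided sign-flip test. Partner genes named were up to 4 per list with the lowest adjusted p past the threshold, together with all 7 genes of the complex and their transcripts. Some partner genes are not reported here. The genes and lists were chosen with earlier results of these data known. The design text gives 4 animals per time point, and 3 were analysed here.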

Additional observations from a re-analysis of the deposited data

Results flagged for a closer look

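The trained muscles of 30 days were lower in Sgcd than those of 2 days by a log2 difference of -0.44, the difference between time points that passed limma's test (adjusted p = 0.04551), and lost it with the animal as a block (adjusted p = 0.1394).

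In 6 further cases every animal of one time point moved one way and every animal of another the opposite way. None of these differences between time points passed limma's test with the animal as a block. For Sgca the mean log2 difference between the trained and the own contralateral muscle was -0.27 after 2 days and 0.15 after 10 days, and -0.20 after 30 days (adjusted p = 0.5334 for 10 against 2 days and 0.5184 for 30 against 10 days). For Sgcd it was 0.39 after 2 days and -0.17 after 30 days (adjusted p = 0.1394). For Dtna it was 0.13 after 2 days and -0.31, -0.44 and -0.22 after 10, 20 and 30 days (adjusted p = 0.4773, 0.1087 and 0.3124 against 2 days).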

How the results depend on the processing

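Over 1643 comparisons of a gene's value with its value under an alternative, 1600 kept their side of the threshold, 35 lost the call and 8 gained it. Only 10 values were past the threshold in the main fits, and only comparisons of these could lose a call, so 1600 is no measure of how firm the calls are. No called value changed sign, and 65 values that were past the threshold in neither setting did. Sgcb was below 0 in all 132 alternative fits of the 4 time points and past the threshold in 33 of 33 at 2, 10 and 20 days, and 20 of 33 at 30 days, where its range was -0.51 to -0.23. Without 1 of 8 control muscles (replicates 1 and 3 of 2 days, 2 and 3 of 10 days, 1 and 3 of 20 days, 2 and 3 of 30 days) its adjusted p at 30 days was 0.05085 to 0.05841, and without trained replicate 1 or 2 it was 0.1304 and 0.2285.

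Of the 7 genes, 2 passed after 2 days with the transcript of the highest mean alone. After 10 days 1 passed with a filter on a mean of 10, which removes Dmd, and 1 with time-matched controls. After 20 days 1 passed with that filter, which removes Dtna, and 1 with the values as deposited. After 30 days 0 passed with the animal as a replicate block, 0 with time-matched controls, 0 with the transcript of the highest mean, and 2 with the values as deposited. Over 12 animals 1 passed as deposited. For 30 against 2 days 0 passed with the replicate block, and for 30 against 10 days 2 passed as deposited, as did 1 in the F test over the 4 trained groups. The values as deposited move the median of all genes to -0.18 at 30 days, from -0.01. Leaving out 1 muscle or animal gave 1 to 2 genes after 2 days, 1 to 3 after 10 days, 1 to 2 after 20 days, 0 to 2 after 30 days, 0 to 1 for 30 against 2 days and 2 to 3 over 12 animals. Calls gained that way were Dmd after 2 days without trained replicate 2 of 2 days (adjusted p = 0.04096), Dtna after 10 days without control replicate 2 of 2 days (adjusted p = 0.02742), Utrn after 30 days without control replicate 2 of 20 days (0.04689) and Sgcb for 30 against 2 days without trained replicate 1 of 2 days (0.37 on the log2 scale, 0.04173). Apart from the values given here and in the results, the replicate block changed no call of the 7 genes. The causes of these changes were not tested.

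Over the whole table, 3235, 3240, 2393 and 2304 genes passed after 2, 10, 20 and 30 days, and 1654, 1420, 1064 and 1155 with a filter on a mean of 10, where fewer genes were tested. With time-matched controls 2007, 1589 and 1121 passed after 10, 20 and 30 days, with the block 1377 after 30 days, without trained replicate 2 of 2 days 1513, without trained replicate 1 of 10 days 2147, and without trained replicate 2 or 3 of 30 days 1472 and 1492. The deposited values keep no depth, so the counting error of the low genes Utrn, Sgcd and Dtna could not be given.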
